A study of Mus musculus with 6 samples.

Results

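Glutamate receptors and the scaffold proteins that hold them at the synapse were measured by RNA-seq in the lateral septum (LS) of mice on an olanzapine diet and of mice on control chow. The set held 36 genes of the 35415 in the deposited tables, taken by gene symbol: the AMPA, NMDA, kainate and delta receptor subunits, the metabotropic receptors, the Dlg, Shank and Homer scaffolds and 2 vesicular glutamate transporters. Olanzapine is a second-generation antipsychotic, and the study sequenced the LS to look for genes that differ after prolonged exposure. All mice were wild-type (WT) female C57BL/6 animals that arrived at about 8 weeks of age and had 1 week of acclimation. The olanzapine group, whose columns carry the short name MetS, received 50 mg of olanzapine per kg of maintenance feed for 12 weeks, and the control group received the same kind of feed without the drug for as long. Each library was made from the LS of 3 mice pooled, with 3 such pools in each group, so that n = 3 counts pools and not single mice. A pool gives no value for any one of its mice.

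Glutamate is the main excitatory transmitter of the brain. AMPA, NMDA and kainate receptors are ion channels that it opens, metabotropic receptors act through G proteins, and the Dlg, Shank and Homer proteins anchor receptors in the postsynaptic density. Most LS neurons are GABAergic and receive dense glutamatergic input from the hippocampus, so receptors made in the LS sit opposite terminals whose cell bodies lie mainly elsewhere.

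None of the 34 members that could be tested passed an adjusted p of 0.05 over all 6 pools, against a background of 2.32% of the 17255 genes tested. Adjusted p values come from the quasi-likelihood test of edgeR, with the Benjamini-Hochberg method applied over all genes tested, unless another tool is named. With a fold limit of 2 added, 0 members passed as well (background 1.01%). At an unadjusted p under 0.05 the same test held 10 members (background 17.6%), of which 8 had lower levels with olanzapine (background 8.4%) and 2 had higher levels (background 9.19%). The 8 were Slc17a6, Grin3a, Homer2, Grin2b, Grik3, Grm5, Grid1 and Shank3, and the 2 were Grik2 and Grin2c. DESeq2 called 5 members, all lower (Slc17a6, Grin3a, Grik3, Grin2b and Homer2), where it called 6.69% of all genes. Limma on the FPKM values called 0 members and, depending on its setting, 9 to 11 genes of the marker lists described below. Its share over all genes was not counted, so the 0 has no background beside it. Values of 22 members lay below a log2 fold change of 0 (background 49.3%), and the median over the 34 was -0.05 beside 0.0039 over all genes tested.

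Olanzapine pool 1 stood apart from the other pools and bears on many values below. Of the 11 markers of cortical and hippocampal glutamatergic neurons, 10 were highest in that pool, and their summed FPKM was 885 there, 350 and 353 in olanzapine pools 2 and 3, and 236 to 263 in the control pools. Most of that sum was Nrgn, and the others together had 294 FPKM in olanzapine pool 1, 18.3 and 13.2 in olanzapine pools 2 and 3, and 19.8 to 37.1 in the control pools. With that pool left out, 9 of the 11 had a log2 fold change below 0 (background 50.3%), with a median of -0.42. At an unadjusted p under 0.05, 5 were then lower (background 10.1%) and 1 higher (background 8.71%). Slc17a7, the vesicular transporter of those neurons, stood at 22.8, 45.7 and 55.1 CPM in control and 659, 21.0 and 10.7 CPM in olanzapine pools, with pools listed here and throughout in the order 1, 2, 3; it was chosen for display after its values were seen. The groups differed in other markers too. Of 8 hepatocyte genes 7 were called higher, led by Apoa4, and of 7 nuclear-retained long noncoding RNAs 5 were called higher, led by Snhg11 and Malat1. Summed FPKM of 9 striatal markers was 1149 and 1086 in olanzapine pools 2 and 3, beside 555 in pool 1 and 527 to 945 in the control pools, and Ttr of the choroid plexus ran from 20.8 to 6845 CPM over the 6 pools. Markers of LS neurons were present in every pool: all 15 passed the filter on low counts. Their summed FPKM was 657 to 770 in the control pools and 611 to 747 in the olanzapine pools. Much of that sum was Sst, Gad1, Slc32a1 and Gad2 (mean FPKM of 210, 134, 84.0 and 80.0). Of the 15, 13 had a log2 fold change below 0 (background 49.3%), and Sst was 1 of the 2 above 0. Results below are therefore also given without olanzapine pool 1 where it bears on them, and the plot of fold changes shows both values for every tested member. Counts on genes ranged from 38208153 to 39868872 per pool, and the members took 0.518% to 0.618% of them.

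Without olanzapine pool 1, edgeR called 1 member, Grin2b, which was lower (background 2.87% in either direction and 1.11% lower). At an unadjusted p under 0.05 there were then 12 members (background 18.8%), 11 of them lower (background 10.1%) and 1 higher (background 8.71%). Log2 fold changes of 26 members lay below 0 (background 50.3%), and the median was -0.14. These 11 were Grin2b, Grin3a, Grik3, Grik4, Grid1, Grm5, Grm8, Shank1, Shank2, Homer2 and Slc17a6, and the member with the higher level was Grik2. DESeq2 without that pool called 6 members (background 7.58%). With only 2 olanzapine pools left, the spread of that group rests on a single pair. Striatal markers were higher in these pools: 8 of the 9 had a higher level at an unadjusted p under 0.05 without olanzapine pool 1 and 1, Rgs9, was called, and their part in the lower values of the members was not tested.

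**Figure D1:**
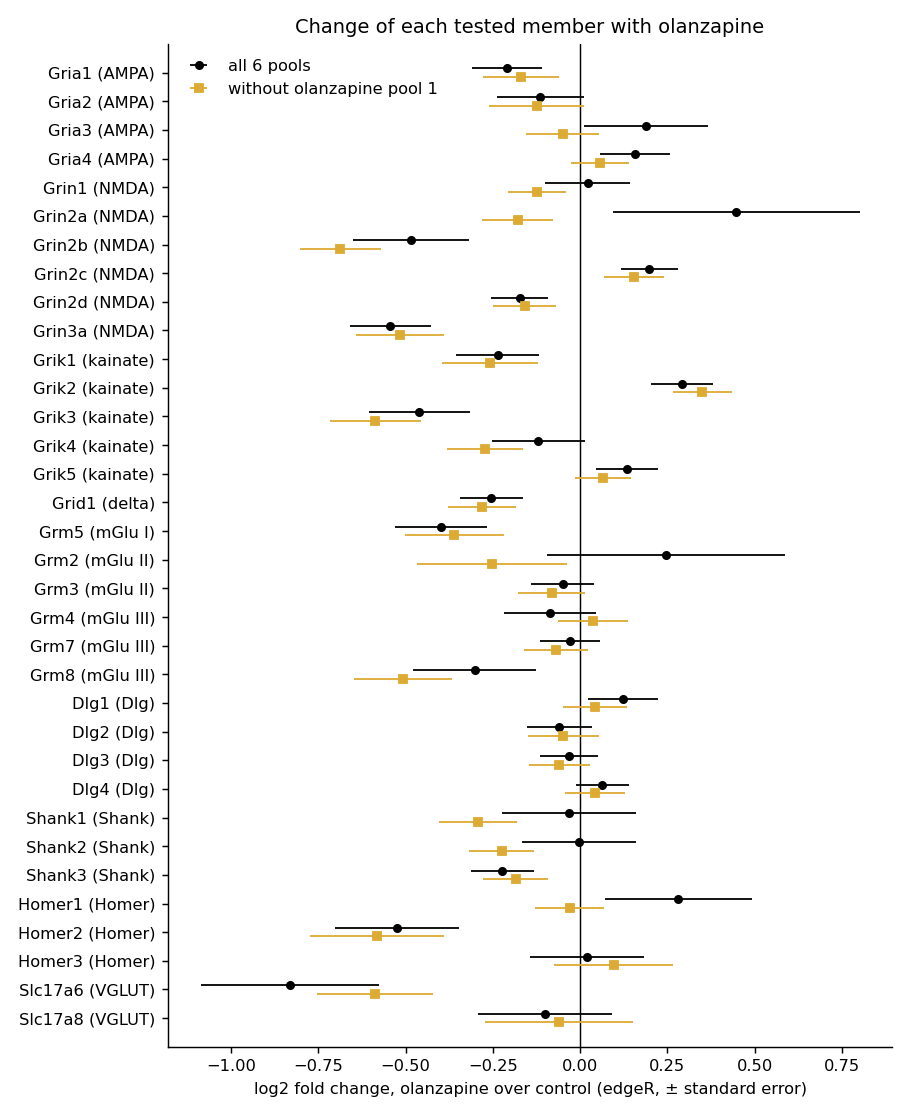
Log2 fold change of olanzapine over control for each of the 34 tested members, grouped by role, with the standard error as a bar; black points use all 6 pools and yellow squares leave out olanzapine pool 1. Slc17a6 lies furthest below 0 with all pools (-0.83), Grin2b furthest without pool 1 (-0.69), and 6 members (Gria3, Grin1, Grin2a, Grm2, Grm4 and Homer1) change side between the 2 fits.

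AMPA receptors, the tetramers of Gria1 to Gria4 that carry most fast excitatory transmission, gave no member with an unadjusted p under 0.05, with or without olanzapine pool 1. Gria1 had the highest FPKM of the family, a value per kilobase of the length implied for each gene. Its mean was 95.0 FPKM, above Gria2 (43.6), Gria3 (21.0) and Gria4 (14.2). Ranks and shares by FPKM, here and below, rest on those lengths, which ran from 3010 bases (Homer3) to 47155 (Dlg2). Gria1 measured 708, 629 and 584 CPM in control and 521, 529 and 611 CPM in olanzapine pools, CPM being the counts scaled to equal TMM-adjusted library totals. The highest olanzapine pool reached into the control range, and the group means were 640.1 ± 63.0 and 554 ± 49.7 CPM (SD, n = 3 pools each), with a log2 fold change of -0.21 ± 0.10 (adjusted p = 0.333). Gria2, whose edited subunit makes the channel largely impermeable to calcium, had a log2 fold change of -0.11 ± 0.12. Gria3 and Gria4 were highest in olanzapine pool 1, at 189.8 and 107 CPM against control ranges of 113 to 137 and 80.7 to 91.5 CPM. Without that pool the log2 fold change of Gria3 went from 0.19 to -0.05 and that of Gria4 from 0.16 to 0.06. The share of Gria1 in the summed FPKM of the family was 56.8, 55.3 and 57.5% in control and 48.3, 55.5 and 54.4% in olanzapine pools. Olanzapine pool 1 lay furthest below the control range, pool 3 just below it and pool 2 inside it. The shares of Gria3 and Gria4 were higher in every olanzapine pool than in every control pool. They were 11.4 to 17.0% against 10.6 to 11.3% for Gria3 and 8.17 to 9.89% against 7.22 to 7.89% for Gria4.

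NMDA receptors pair the obligatory Grin1 subunit with Grin2 or Grin3 subunits and pass calcium when glutamate binds to a depolarized membrane. Among them Grin2b and Grin3a were lower with olanzapine and Grin2c slightly higher, all at unadjusted p values under 0.05 that did not survive adjustment. Grin1 was the most abundant subunit by FPKM (83.4) and measured 387, 366 and 334 CPM in control and 438, 327 and 339 CPM in olanzapine pools. Its highest value was that of olanzapine pool 1, the groups overlapped, and the log2 fold change was 0.02 ± 0.12, or -0.12 ± 0.08 without that pool.

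Grin2b encodes the GluN2B subunit that dominates in the young brain and remains in many adult forebrain neurons (RefSeq, GRCm38.p6: chr6:135713221-136173615, minus strand). It stood at 356, 361 and 298 CPM in control and 304, 189 and 232 CPM in olanzapine pools. Olanzapine pool 1 lay just inside the control range and the other olanzapine pools well below it. Means were 338 ± 35.2 and 242 ± 58.5 CPM (SD, n = 3 pools each), a difference of -28.6%, with a log2 fold change of -0.49 ± 0.17 (adjusted p = 0.185). DESeq2 gave an adjusted p of 0.047, within a range of 1.33e-06 to 0.41 over all alternatives. Without olanzapine pool 1 Grin2b passed the test and fell, with a log2 fold change of -0.69 ± 0.12 (adjusted p = 0.0224). Leaving out olanzapine pool 2, the lowest, gave -0.34 (adjusted p = 0.304).

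Grin3a, a subunit that lowers the calcium permeability of NMDA receptors (chr4:49661611-49846023, minus strand), had the smallest adjusted p of all members. It measured 85.0, 72.7 and 61.2 CPM in control and 48.1, 52.3 and 49.9 CPM in olanzapine pools. Every olanzapine pool was below every control pool, and the olanzapine pools lay close together. The group means were 73.0 ± 11.9 and 50.1 ± 2.09 CPM (SD, n = 3 pools each), with a log2 fold change of -0.54 ± 0.12 (adjusted p = 0.0573). DESeq2 gave an adjusted p of 0.00165 (alternatives 0.00165 to 0.188), and edgeR without control pool 3 gave 0.0391. The log2 fold change without olanzapine pool 1 was -0.52 ± 0.13 (adjusted p = 0.0725).

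Grin2c, typical of cerebellar granule cells and of some astrocytes and interneurons, measured 42.1, 43.3 and 39.2 CPM in control and 50.5, 43.6 and 48.8 CPM in olanzapine pools. The groups did not overlap, though olanzapine pool 2 exceeded the highest control pool by little, and there was a log2 fold change of 0.20 ± 0.08 (adjusted p = 0.259). Without olanzapine pool 1 the value was 0.15 ± 0.09 (adjusted p = 0.379). Grin2a, the GluN2A subunit that gains ground in the mature forebrain, had a very different profile: 42.0, 49.5 and 41.2 CPM in control and 103, 37.3 and 40.9 CPM in olanzapine pools. Olanzapine pool 1 held more than any other pool, and the remaining olanzapine pools were below all control pools. Its log2 fold change was 0.45 ± 0.35 with all pools and -0.18 ± 0.10 without pool 1, which reversed its direction. Grin2d was slightly lower in every olanzapine pool, at 36.3 to 38.1 CPM against 39.8 to 45.9 CPM. Grin3b had too few counts to be tested (mean 0.0494 FPKM), and its exons overlap Tmem259.

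On the FPKM scale, Grin2b made up less of the Grin2 subunits in every olanzapine pool. Grin2b took 52.4, 53.6 and 50.5% in control and 44.2, 39.6 and 42.8% in olanzapine pools of the summed FPKM of Grin2a to Grin2d. The groups did not overlap, and all olanzapine pools were below 45%. Grin2c took 15.4, 15.9 and 16.5% in control and 18.2, 22.7 and 22.4% in olanzapine pools, again without overlap. The ratio of Grin2a to Grin2b was 0.147, 0.170 and 0.172 in control and 0.419, 0.245 and 0.219 in olanzapine pools. That ratio was higher in every olanzapine pool than in every control pool, pool 1 having the highest, and it was derived after the single values had been seen. These shares and ratios are descriptions and were not tested. Shares within a family, here and in the other families, sum to the whole, so a lower share of any gene raises the others. The separations of Grin2b and Grin2c by share are therefore not independent of each other.

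**Figure D2:**
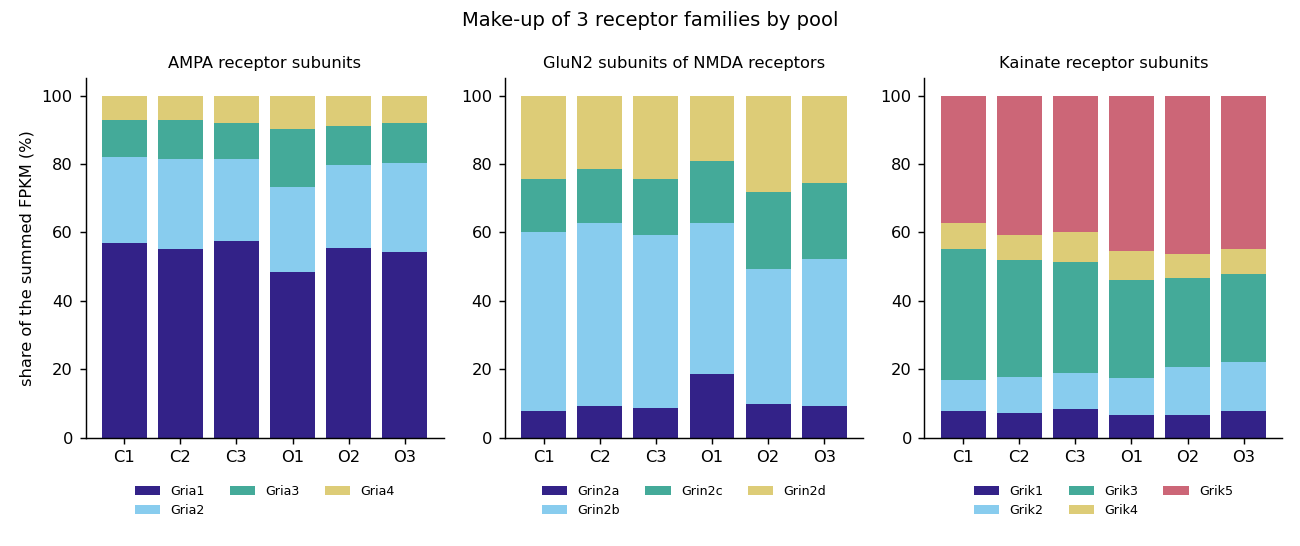
Share of each subunit in the summed FPKM (percent, y axis) of the AMPA, Grin2 and kainate families, one stacked bar per pool (C1 to C3 control, O1 to O3 olanzapine). Grin2b takes 50.5 to 53.6% in the control pools and 39.6 to 44.2% in the olanzapine pools, Grik3 takes 32.5 to 38.1% and 25.8 to 28.7%, and the AMPA bars differ mainly in O1.

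Kainate receptors, channels of Grik1 to Grik5 that tune transmitter release and excitability, held a member on each side. Grik3, a low-affinity subunit often found presynaptically (chr4:125490259-125714173, plus strand), measured 179, 152 and 127 CPM in control and 129, 97.4 and 106 CPM in olanzapine pools. Olanzapine pool 1 lay within the control range by a small margin, and the other olanzapine pools were below it. Means were 153 ± 26.0 and 111 ± 16.5 CPM (SD, n = 3 pools each), with a log2 fold change of -0.46 ± 0.15 (adjusted p = 0.159). By DESeq2 the adjusted p was 0.0378 (alternatives 0.000888 to 0.371), and without olanzapine pool 1 the log2 fold change was -0.59 ± 0.13 (adjusted p = 0.0547).

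Grik2, the GluK2 subunit found in most native kainate receptors (chr10:49093680-49790161, minus strand), went the other way, at 69.5, 75.6 and 66.2 CPM in control and 78.9, 85.0 and 94.8 CPM in olanzapine pools. All olanzapine pools were above all control pools, with means of 70.4 ± 4.79 and 86.2 ± 7.99 CPM (SD, n = 3 pools each) and a log2 fold change of 0.29 ± 0.09 (adjusted p = 0.149). It was the only member with an unadjusted p under 0.05 and a higher level both with and without olanzapine pool 1, where the log2 fold change was 0.35 ± 0.08 (adjusted p = 0.0698). Grik5, which needs Grik1, Grik2 or Grik3 to form channels, had the highest FPKM of the family (17.0) and stood at 188, 194 and 168 CPM in control and 219.7, 186 and 198 CPM in olanzapine pools. The groups overlapped and the log2 fold change was 0.14 ± 0.09, or 0.07 ± 0.08 without olanzapine pool 1, the highest. Grik4, the other subunit of that kind, measured 22.5, 20.4 and 21.1 CPM in control and 23.6, 16.7 and 18.6 CPM in olanzapine pools. Olanzapine pool 1 was the highest of all 6 and the other olanzapine pools the lowest, so its log2 fold change was -0.12 with that pool and -0.27 ± 0.11 (adjusted p = 0.223) without it. Leaving out each pool in turn, the value for Grik4 ran from -0.27 to -0.02. Grik1, at 13.9 to 20.4 CPM over all pools, was lower in every olanzapine pool than in every control pool, with a log2 fold change of -0.24 ± 0.12 (adjusted p = 0.352). On the FPKM scale, Grik3 took 38.1, 34.2 and 32.5% in control and 28.7, 25.9 and 25.8% in olanzapine pools of the family's sum. Grik5 took 37.3, 40.6 and 39.95% in control and 45.5, 46.2 and 44.8% in olanzapine pools, and neither of these shares overlapped between the groups. Both are parts of the same sum and so are tied to each other, and the CPM of Grik5 overlapped.

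Grid1, an orphan receptor of the delta family that binds cerebellins across the synapse (chr14:34820003-35583387, plus strand), measured 94.0, 93.1 and 78.1 CPM in control and 76.8, 69.4 and 76.1 CPM in olanzapine pools. Every olanzapine pool was below every control pool, by a narrow margin in pools 1 and 3, with means of 88.4 ± 8.93 and 74.1 ± 4.05 CPM (SD, n = 3 pools each) and a log2 fold change of -0.25 ± 0.09 (adjusted p = 0.197). Without olanzapine pool 1 the log2 fold change was -0.28 ± 0.10 (adjusted p = 0.17).

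Of the metabotropic receptors, only Grm5 had an unadjusted p under 0.05 with all pools. Grm5 encodes mGlu5, which couples to Gq and is tied to NMDA receptors through Homer and Shank (chr7:87583981-88135063, plus strand). It stood at 337, 309 and 252 CPM in control and 214, 203 and 263 CPM in olanzapine pools. Olanzapine pool 3 reached into the control range and the other olanzapine pools did not. Its mean level of 29.2 FPKM was the highest of the metabotropic members, the CPM means were 299 ± 43.0 and 227 ± 31.9 CPM (SD, n = 3 pools each), and there was a log2 fold change of -0.40 ± 0.13 (adjusted p = 0.175). The log2 fold change without olanzapine pool 1 was -0.36 ± 0.14 (adjusted p = 0.216).

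The other metabotropic receptors of the set couple to Gi and mostly dampen release. Grm3, also an astrocyte receptor, measured 69.6, 71.4 and 64.1 CPM in control and 68.8, 58.4 and 70.8 CPM in olanzapine pools, with overlapping groups and a log2 fold change of -0.05 ± 0.09. Grm4, a presynaptic receptor, measured 57.1, 66.4 and 54.4 CPM in control and 45.9, 64.3 and 57.5 CPM in olanzapine pools; the log2 fold change was -0.09 ± 0.13 and was 0.04 without olanzapine pool 1. Grm8, of the same presynaptic group, stood at 23.7, 19.6 and 18.0 CPM in control and 21.0, 13.9 and 14.8 CPM in olanzapine pools. Olanzapine pool 1 lay among the control pools and the other olanzapine pools below them, so its log2 fold change was -0.30 ± 0.18 with all pools and -0.51 ± 0.14 (adjusted p = 0.0993) without that one. It was -0.18 (adjusted p = 0.719) without control pool 1 and -0.19 (adjusted p = 0.656) without olanzapine pool 2. Grm2, found on terminals of cortical and thalamic neurons, was at 35.9 CPM in olanzapine pool 1 and between 12.1 and 21.6 CPM elsewhere. Grm7, whose exons overlap Gm20387, had a log2 fold change of -0.03 ± 0.09. Grm6, a receptor of retinal bipolar cells, had 0 counts in all pools, which allows up to 3 reads per library by counting error alone.

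**Figure D3:**
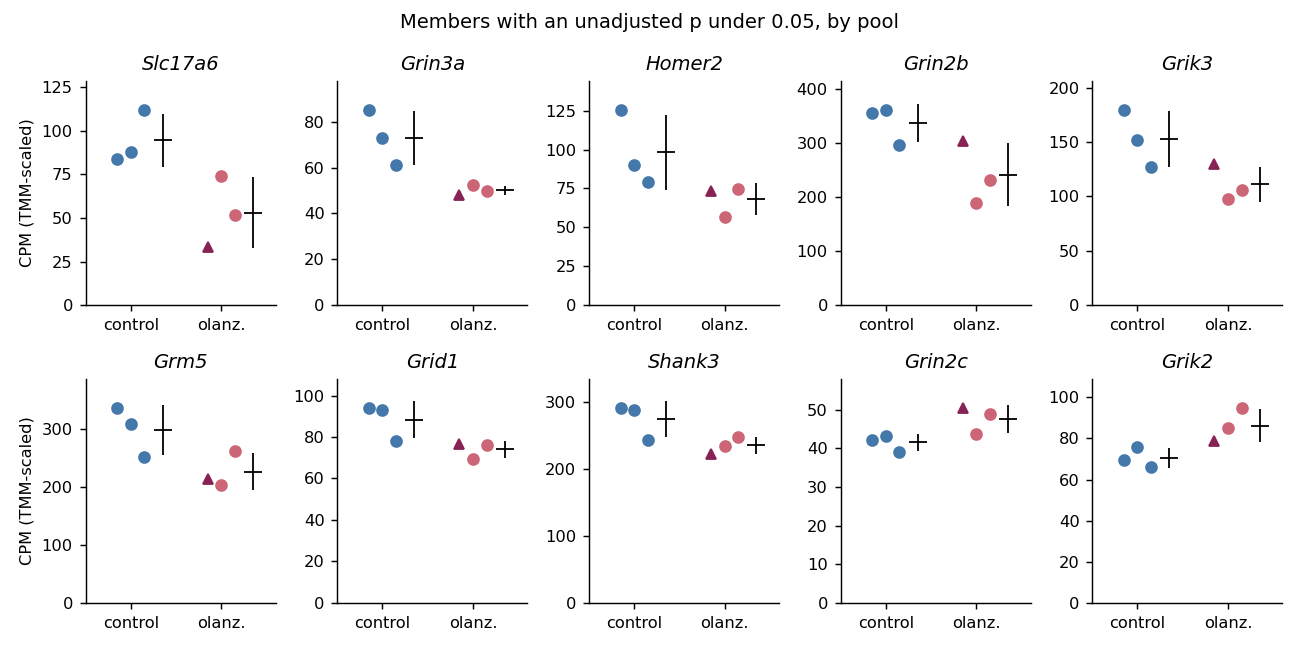
CPM (TMM-scaled, y axis from 0) in each pool for the 10 members with an unadjusted p under 0.05; circles are pools, the triangle is olanzapine pool 1, and the crossed bar is the group mean with its SD (n = 3 pools). In Slc17a6, Grin3a, Homer2 and Grid1 all olanzapine pools lie below all control pools, and in Grin2c and Grik2 above them.

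Scaffold proteins of the Dlg family, which hold NMDA and AMPA receptors at the membrane, were the most even group. Dlg4, the PSD-95 gene, had the highest mean FPKM of all 36 members (118) and measured 775, 789 and 729.8 CPM in control and 821, 760.3 and 815 CPM in olanzapine pools. The spread over all pools was small, the groups overlapped, and the log2 fold change was 0.06 ± 0.08. Dlg1, Dlg2 and Dlg3 had log2 fold changes of 0.12 ± 0.10, -0.06 ± 0.09 and -0.03 ± 0.08. That of Dlg1 was 0.04 ± 0.09 without olanzapine pool 1. By FPKM, Dlg4 took 70.2 to 71.0% of the family in the control pools and 70.8 to 72.9% in the olanzapine pools. That share rests on implied lengths of 6644 bases for Dlg4 and 47155 for Dlg2.

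Shank proteins, the next layer of the postsynaptic density, link the Dlg complexes to Homer and to actin. Shank3 (chr15:89493013-89560261, plus strand) stood at 292, 289 and 244 CPM in control and 223, 235 and 249 CPM in olanzapine pools. Olanzapine pool 3 was above the lowest control pool, the means were 275 ± 27.0 and 236 ± 13.1 CPM (SD, n = 3 pools each), and there was a log2 fold change of -0.22 ± 0.09 (adjusted p = 0.248). The log2 fold change was -0.18 ± 0.09 (adjusted p = 0.324) without olanzapine pool 1. Shank1, the most abundant of the 3 by FPKM (23.7), measured 368, 308 and 288 CPM in control and 418, 246 and 279.9 CPM in olanzapine pools. Shank2 measured 178, 176 and 149.6 CPM in control and 214, 137 and 151 CPM in olanzapine pools. In both, olanzapine pool 1 was the highest of all and the log2 fold changes were -0.03 and -0.0039, whereas without it they were -0.29 ± 0.11 (adjusted p = 0.207) and -0.22 ± 0.09 (adjusted p = 0.242).

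Homer proteins bridge group I metabotropic receptors to Shank and to calcium stores, and Homer2 (chr7:81600481-81706925, minus strand) was the member of the family with the largest difference. It measured 125, 89.9 and 79.5 CPM in control and 73.5, 56.4 and 74.8 CPM in olanzapine pools. All olanzapine pools were below all control pools, although control pool 1 was far above the other control pools and the lowest of these was close to olanzapine pools 1 and 3. Means were 98.2 ± 24.0 and 68.3 ± 10.2 CPM (SD, n = 3 pools each), with a log2 fold change of -0.53 ± 0.18 (adjusted p = 0.182). DESeq2 gave an adjusted p of 0.0479 (alternatives 0.0479 to 0.384), and without olanzapine pool 1 the log2 fold change was -0.58 ± 0.19 (adjusted p = 0.151). Leaving out control pool 1 instead gave -0.31 (adjusted p = 0.384). Homer1, whose short form is induced by activity, was at 187 CPM in olanzapine pool 1 and between 102 and 124 CPM in all others. Its log2 fold change of 0.28 ± 0.21 became -0.03 ± 0.10 without that pool. Homer3, whose exons overlap Ddx49, had a log2 fold change of 0.02 ± 0.16. By FPKM Homer2 took 56.3, 43.9 and 42.8% in control and 32.7, 36.5 and 39.1% in olanzapine pools of the family, a mean difference of -11.5 percentage points beside a pooled SD of 5.77. The difference was -9.84 points without olanzapine pool 1, beside -11.0 points for Grin2b in its own family.

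Slc17a6, the VGLUT2 transporter that loads glutamate into vesicles of thalamic, hypothalamic and other subcortical neurons (chr7:51621830-51671126, plus strand), had the largest fold change of all members with all pools, though not without olanzapine pool 1. It measured 83.9, 87.7 and 112 CPM in control and 33.5, 73.9 and 51.7 CPM in olanzapine pools. All olanzapine pools were below all control pools, and olanzapine pool 1 was the lowest. Means were 94.4 ± 15.03 and 53.0 ± 20.2 CPM (SD, n = 3 pools each), a difference of -43.8%, with a log2 fold change of -0.83 ± 0.26 (adjusted p = 0.151). The adjusted p was 0.00906 by DESeq2 (alternatives 0.00906 to 0.332), and the log2 fold change without olanzapine pool 1 was -0.59 ± 0.17 (adjusted p = 0.105). Markers of thalamic and hypothalamic glutamatergic neurons were in sum also lowest in olanzapine pool 1: their summed FPKM, most of it Calb2, was 168 to 204 in the control pools and then 86.1, 187 and 166 with olanzapine, none of them was at 0 in all pools, and 0 of the 7 tested were called by edgeR or DESeq2. Without Calb2 the sum was 40.8 to 50.4 in the control pools and then 24.5, 38.5 and 40.6 with olanzapine. All 7 had a log2 fold change below 0, with a median of -0.43 and of -0.23 without olanzapine pool 1, and at an unadjusted p under 0.05 there were 0 with all pools and 1 without that one. Tcf7l2 of that list, shown after its values were seen, stood at 30.3, 36.5 and 50.7 CPM in control and 16.3, 43.6 and 23.1 CPM in olanzapine pools. Its highest pool was control 3 and its lowest olanzapine 1, as for Slc17a6, Lhx9 and Calb2. Prkcd and Rorb were highest in control pool 1 instead, and Lef1 and Rora were lowest in olanzapine pool 3. In olanzapine pool 2, Tcf7l2 lay inside its control range, whereas Slc17a6 lay below its own. The part of these cells in the Slc17a6 difference was not tested. In bulk tissue, fewer cells of a type and less RNA per cell cannot be told apart, here and for every other member. Slc17a8, the VGLUT3 gene of scattered cholinergic, serotonergic and GABAergic neurons, was low (1.18 FPKM) and had a log2 fold change of -0.10 ± 0.19.

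The start regions of Homer2 and Slc17a6 are shown because both genes were lower in every olanzapine pool and both have a RefSeq promoter window that ends before the gene begins. Each is the stretch of 250 bases just before the most upstream RefSeq start (GRCm38.p6), 5′ to 3′ on the gene's strand, at chr7:81706926-81707175 (minus) and chr7:51621580-51621829 (plus). Capitals mark the GC box GGGCGG or its reverse complement CCGCCC, where overlapping matches run together.
Homer2: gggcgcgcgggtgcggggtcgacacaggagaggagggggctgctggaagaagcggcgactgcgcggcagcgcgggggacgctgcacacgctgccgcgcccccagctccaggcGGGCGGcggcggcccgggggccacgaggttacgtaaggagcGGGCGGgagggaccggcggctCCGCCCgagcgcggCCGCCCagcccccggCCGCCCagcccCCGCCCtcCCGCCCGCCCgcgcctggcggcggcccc
Slc17a6: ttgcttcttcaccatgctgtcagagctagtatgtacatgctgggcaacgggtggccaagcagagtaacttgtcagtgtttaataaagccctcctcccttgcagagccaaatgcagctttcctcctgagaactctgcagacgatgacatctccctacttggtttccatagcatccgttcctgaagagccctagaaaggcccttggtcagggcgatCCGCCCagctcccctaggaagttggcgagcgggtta
The Homer2 window held 8 such matches and 40 CpG pairs at 83.2% GC, and the Slc17a6 window held 1 match and 7 CpG pairs at 53.2% GC. Promoter windows were found for 25 of the 36 members, taken at the most upstream start in the table; 14 of them lay at least partly inside the RefSeq gene body and 11 wholly before it. Of these, 13 (52.0%) held a GC box on either strand, against 32.7% of 32851 windows of the same length. The GC box was in 7 of those 14 and 6 of those 11, and the position of all windows against gene bodies was not examined. The cAMP response element TGACGTCA was in 0 of the 25 and in 1.55% of all windows. These matches describe the letters of the windows and say nothing about factors bound there. Most members had long gene bodies, with a median span of 197.2 kb over the 34 tested and of 204.2 kb over the 8 with lower levels, beside 24.9 kb over 15046 protein-coding genes. The spans of 3 tested members (Grin2c, Grm2 and Homer3) were below that last value.

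**Figure D4:**
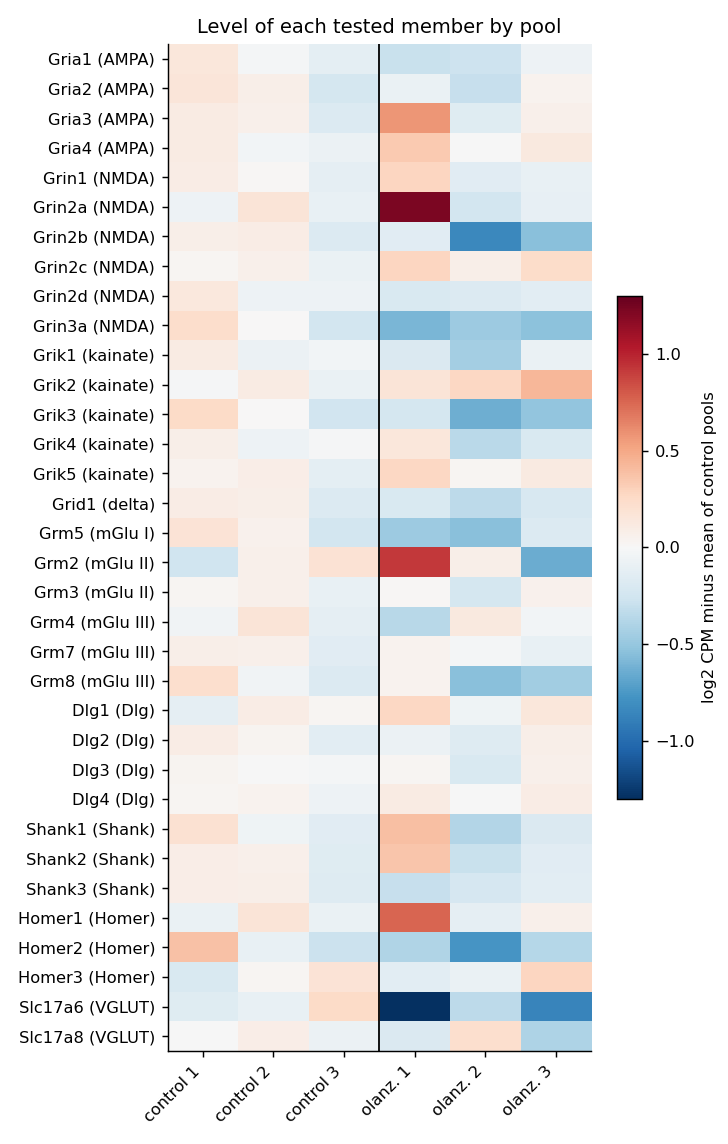
Level of each tested member (rows, by role) in each pool (columns), as the log2 CPM minus the mean of the 3 control pools; red is higher, blue lower, and the black line separates the groups. Olanzapine pool 1 holds the darkest red cells, Grin2a, Grm2 and Homer1, while Grin2b, Grin3a, Grik3, Homer2 and Slc17a6 are blue across the olanzapine pools, palest for Grin2b in pool 1.

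The median of the members varied between pools of 1 group. The median over the 34 of the log2 ratio to the control mean was 0.09, 0.06 and -0.12 in control and 0.02, -0.21 and -0.10 in olanzapine pools. Control pool 3 was thus below olanzapine pools 1 and 3, and olanzapine pool 2 was the lowest. Of the 8 members with an unadjusted p under 0.05 and lower levels, 5 were lowest in olanzapine pool 2 (Homer2, Grin2b, Grik3, Grm5 and Grid1) and 3 in olanzapine pool 1 (Slc17a6, Grin3a and Shank3). Groups did not overlap for 6 members lower with olanzapine (background 11%) and 2 higher (background 13.3%), and without olanzapine pool 1 for 12 lower (background 18.2%) and 2 higher (background 19.5%). The LS neuron markers had a median log2 fold change of -0.34 over 15 genes, 3 of them lower and 0 higher at an unadjusted p under 0.05 (background 8.4% lower and 9.19% higher) and 0 called. That median was -0.17 without olanzapine pool 1, with 2 lower (background 10.1%) and 0 higher. Of 7 astrocyte markers, 4 were lower and 0 higher at an unadjusted p under 0.05 (background 8.4% lower), with a median of -0.20, or -0.15 without olanzapine pool 1. Leaving out that pool, 2 were lower (background 10.1%) and 1 higher (background 8.71%) at that level. Aldh1l1 and Aldoc were then higher without overlap (background 19.5%), at 0.17 ± 0.07 and 0.12 ± 0.09 on the log2 scale. Sox9, an astrocyte transcription factor shown after its values were seen, measured 54.3, 48.4 and 57.0 CPM in control and 29.4, 40.7 and 36.8 CPM in olanzapine pools, without overlap. Its log2 fold change was -0.58 ± 0.13 (adjusted p = 0.0609, 0.00158 by DESeq2, alternatives 0.00158 to 0.192). It fell by edgeR when olanzapine pool 1 was left out, with -0.46 ± 0.09 (adjusted p = 0.0436). The part of either list in the lower levels of the members was not tested.

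Olanzapine pool 1 was the highest of all pools for 13 of the 34 tested members (background 22.8%). These were Gria3, Gria4, Grin1, Grin2a, Grin2c, Grik4, Grik5, Grm2, Dlg1, Dlg4, Shank1, Shank2 and Homer1. Of the markers named above, Slc17a7 went from a log2 fold change of 2.48 with all pools to -1.38 without pool 1. The part of cortical or hippocampal cells in these 13 values was not tested. Nrgn, a calmodulin-binding protein of forebrain neurons and the marker of that list with the highest mean FPKM, was also higher in olanzapine pools 2 and 3, at 285, 295 and 292 CPM in control and 775, 414 and 439 CPM in olanzapine pools, and rose without pool 1, with a log2 fold change of 0.55 ± 0.07 (adjusted p = 0.0056). Nrgn went against the list. Without pool 1, 6 of its markers were lower without overlap (background 18.2%) and 1, Nrgn itself, was higher (background 19.5%).

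**Figure D5:**
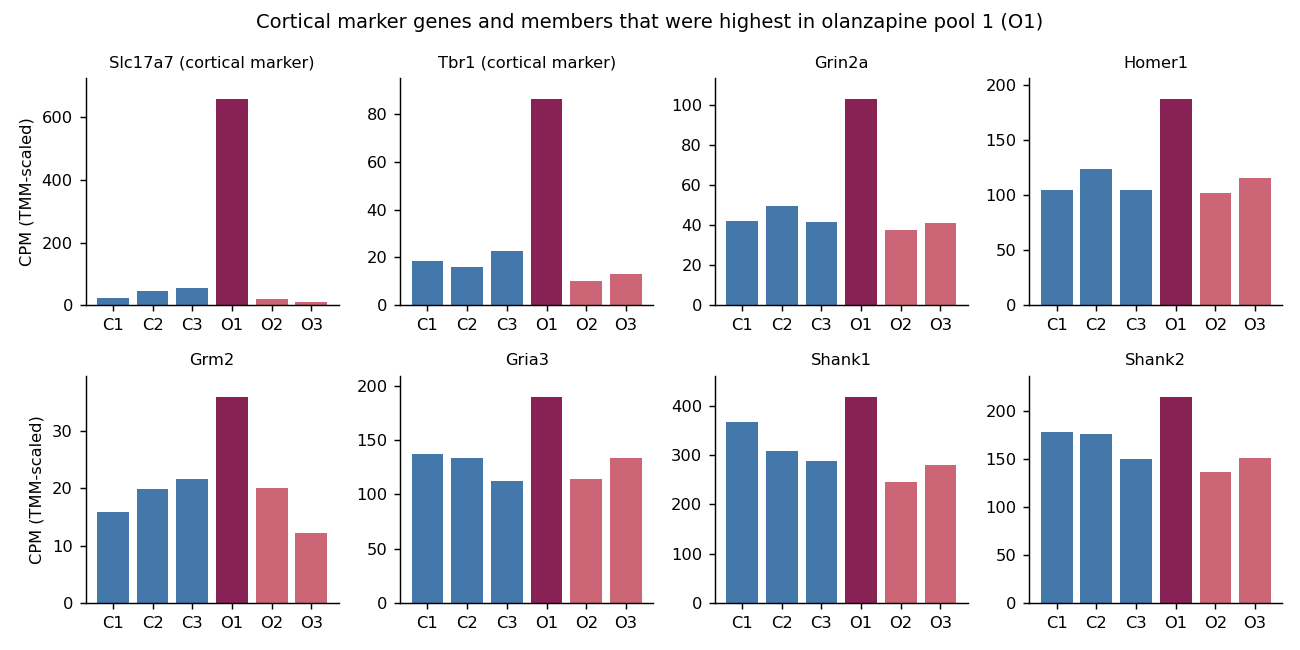
CPM (TMM-scaled, y axis from 0) of Slc17a7 and Tbr1, markers of cortical and hippocampal glutamatergic neurons, and of 6 members that were highest in olanzapine pool 1, one bar per pool (C control, O olanzapine; no error, each bar being 1 library). Pool O1 is the tallest bar in every panel; relative to the next pool it stands out most for Slc17a7 (659 CPM) and least for Shank1 and Shank2.

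Genes that work beside the members were read from 5 lists of 70 genes in all, of which 2 (2.86%) were called with all pools. That share is near the 2.32% of all genes tested, so this count is no result about the lists. DESeq2 called 11 of the 70, where it called 6.69% of all genes. Without olanzapine pool 1, edgeR called 5 of the 70 (background 2.87%). Slc38a1, a neuronal glutamine transporter that supplies glutamate and GABA synthesis, measured 338, 301 and 291 CPM in control and 232, 224 and 239.8 CPM in olanzapine pools. It fell, each olanzapine pool being below each control pool, with a log2 fold change of -0.42 ± 0.08 (adjusted p = 0.036). The value was -0.42 ± 0.08 (adjusted p = 0.0401) without olanzapine pool 1. Leaving out any other single pool put its adjusted p between 0.0663 and 0.132, above the threshold of 0.05. Npas4, a transcription factor induced by calcium entry, measured 12.1, 18.0 and 12.5 CPM in control and 34.3, 27.5 and 32.2 CPM in olanzapine pools. It rose, with a log2 fold change of 1.14 ± 0.17 (adjusted p = 0.0155). Leaving out olanzapine pool 1 gave 1.07 ± 0.18 (adjusted p = 0.0197). Without control pool 1, control pool 3 or olanzapine pool 3 its adjusted p was 0.067, 0.0621 and 0.0729. Neither Slc38a1 nor Npas4 was called with a replicate block in the fit or by limma on unfiltered FPKM. Of the 12 activity-regulated genes, 11 were highest in olanzapine pool 1 (background 22.8%), and 6 had a higher level at an unadjusted p under 0.05 (background 9.19%), Egr1 being the most abundant by FPKM. Without that pool 4 had a higher level at that p (background 8.71%). Of the 12 genes of glutamate uptake and metabolism, 1 was higher (background 9.19%) and 2 lower (background 8.4%) at an unadjusted p under 0.05. Slc38a1 was among the lower ones.

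The other lists held no gene called with all pools. Of 14 AMPA and kainate auxiliary subunits, led in FPKM by Cnih2, 2 were higher and 2 lower at an unadjusted p under 0.05 (background 9.19% higher and 8.4% lower, here and for the next lists). Of 17 other postsynaptic density proteins, led by Camk2a, 1 was higher and 2 lower, and 12 were highest in olanzapine pool 1 (background 22.8%). Of 15 trans-synaptic partners, the secreted or membrane proteins that align receptors with terminals and of which Nrxn2 was the most abundant, 0 were higher and 3 lower. Without olanzapine pool 1, 10 of these partners were lower at that level (background 10.1%) and 3 were called (background 1.11% called lower), all lower, among them Nptx1 and Nptxr. The log2 fold changes were then -0.56 ± 0.10 with an adjusted p of 0.0289 for Nptx1 and -1.06 ± 0.17 with an adjusted p of 0.0184 for Nptxr. Nptx1, a pentraxin that clusters AMPA receptors, stood at 136, 123 and 122 CPM in control and 273, 77.1 and 95.4 CPM in olanzapine pools. It was highest in olanzapine pool 1 and lowest in the other olanzapine pools. Nptxr, the receptor of the pentraxins, also had its lowest values in olanzapine pools 2 and 3. In the same fit without pool 1, 9 of 11 cortical and hippocampal markers were below 0 (background 50.3%), 6 of them without overlap (background 18.2% lower). There, 8 of 9 striatal markers were higher at an unadjusted p under 0.05 (background 8.71%). The part of those cells in the values of the partners was not tested.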

How the data were processed

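Total RNA of pooled LS tissue was sequenced as paired-end reads of 150 bases. The authors trimmed reads with fastp, used HISAT2 to align them to mm10, obtained reads per gene from HTSeq-count and deposited the raw counts. The authors also deposited FPKM from the same alignments. Tool versions, the strand setting, the annotation and the handling of multi-mapping reads are not given in the sources used here, so overlapping genes are uncertain. The lengths that the counts and FPKM imply run from 3010 bases for Homer3 to 47155 for Dlg2, which lowers the FPKM of genes with many annotated exons.

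Counts were fitted in R 4.3.3 with edgeR 4.0.16 (TMM factors; filterByExpr with 10 counts as minimum and 15 as minimum in total; no term but the group). The quasi-likelihood test was used, adjusted by Benjamini-Hochberg over 17255 genes. Called means an adjusted p under 0.05. The standard error is the size of the log2 fold change over the square root of F. Scripts were tested on simulated data. With 3 pools against 3, an exact permutation test cannot go below p = 0.1. Levels in CPM use totals of 38208153 to 39868872 counts, each multiplied by its TMM factor (0.981 to 1.04). Alternatives were DESeq2 1.42.0, RLE or upper-quartile factors, a count filter that was dropped or set to a mean of 50, a replicate block, limma 3.58.1 on FPKM logged with 1 or 0.1 added where the mean reached 0.1 FPKM, the former also unfiltered, a fold limit of 2, unadjusted p, and each pool left out. DESeq2 without olanzapine pool 1 was added after seeing the data.

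The members and all lists were chosen with earlier results of these data known. All 36 members are named. Values in every pool are given for members called, for those with an unadjusted p under 0.05 with or without olanzapine pool 1 and for the highest by FPKM in each role, and for Grin2a because it was singled out after its values were seen. Of the other lists, genes called (at most 4 per list) or the highest by FPKM are named. Markers of cholinergic neurons, astrocytes, oligodendrocytes and mitochondrially encoded genes gave 0 called genes with all pools by edgeR, as did the striatal, choroid plexus, cortical, thalamic and LS lists; without olanzapine pool 1, Sox9 (astrocytes), Rgs9 (striatum) and Nrgn (cortex) were called. 1 gene called in a partner list is not reported here. Gene positions, spans and promoter windows are from RefSeq (GRCm38.p6), and overlaps from GENCODE M21. Per-sample columns left unused numbered 0. Figures were drawn with matplotlib 3.10.9.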

Additional observations from a re-analysis of the deposited data

How the results depend on the processing

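With all pools kept, 306 log2 fold changes of members were recomputed under 9 other settings: 6 newly passed the threshold, and 1 changed sign (Shank2 at a mean of at least 50 counts, 0.0038). No value could lose the threshold, since 0 members were called in the fit as reported. The number of members called was 5 with DESeq2, 1 without a count filter (Grin3a), 10 at an unadjusted p under 0.05, and 0 to 1 with 1 pool left out, the single calls being Grin3a without control pool 3 and Grin2b without olanzapine pool 1. With DESeq2 and without olanzapine pool 1 it was 6 (Grin2b, Grin3a, Grik2, Grik3, Grm8 and Slc17a6). The median over the members ran from -0.14 to -0.01 with 1 pool left out. Of the 5 lists of partner genes, the 2 calls became 11 with DESeq2, 4 without a count filter, 0 with unfiltered limma and 0 to 5 with 1 pool left out. The 12 marker calls became 20 with DESeq2. Beside these counts, edgeR called 2.32% of all genes tested and DESeq2 6.69%.

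No label says that the replicate numbers mark shared animals or days, and they were not read as pairs; deviations of same-numbered pools correlated at 0.0147, 0.108 and -0.404 over 14279 genes. With the replicate block 0 members were called, the partner lists gave 0 in place of 2, and Slc17a7 (-0.11) and Nptx1 (-0.013) changed sign.

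With 1 pool left out, 204 log2 fold changes of members were recomputed and 23 of them, over 13 members, changed sign. The ranges of these members were -0.050 to 0.34 for Gria3, -0.12 to 0.10 for Grin1, -0.18 to 0.70 for Grin2a, -0.25 to 0.55 for Grm2, -0.10 to 0.029 for Grm3, -0.20 to 0.037 for Grm4, -0.092 to 0.0087 for Grm7, -0.086 to 0.045 for Dlg3, -0.29 to 0.12 for Shank1, -0.22 to 0.12 for Shank2, -0.030 to 0.45 for Homer1, -0.12 to 0.12 for Homer3 and -0.29 to 0.031 for Slc17a8. Those of Slc17a7 and Nptx1 were -1.38 to 3.04 and -0.56 to 0.54. DESeq2 without olanzapine pool 1 gave -0.054 for Gria3, -0.13 for Grin1, -0.18 for Grin2a, -0.26 for Grm2, 0.034 for Grm4, -0.033 for Homer1, -1.38 for Slc17a7 and -0.56 for Nptx1. Beyond fewer pools in these fits, the cause was not tested. The share of Homer2 in its family moved by -7.21 to -14.0 percentage points, depending on the pool left out. With 3 pools of 3 mice per group, differences of the size seen in most members could not be told from the spread between pools.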
